A study of Mus musculus with 6 samples.

Results

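The 67 genes described here encode the filament systems of the cell and the proteins that bind them directly. They were taken from the 12027 rows of the count table by symbol: actins, actinins, tubulins, myosin light and heavy chains, unconventional myosins, tropomyosins, filamins, subunits of the Arp2/3 complex, vimentin, desmin, transgelins and calponins. The annotation holds 108 symbols that match these names, and 41 of them had no row, among them the muscle actins Acta1 and Actg2, the calponin Cnn1, the filamin Flnc and most sarcomeric myosins. Of those 41, no value was analysed here.

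Actin filaments carry contraction, adhesion and the bile canaliculus of the hepatocyte, and microtubules built of alpha and beta tubulin carry secretion and, in dividing cells, the spindle. Myosins move along actin, tropomyosins and calponins coat it, filamins and actinins crosslink it, and the Arp2/3 complex branches it. In liver, smooth muscle actin (Acta2), transgelin, desmin and vimentin are mostly known from stellate cells, myofibroblasts and vessel walls, while hepatocytes are rich in beta actin and tubulin. Several of these genes are targets of SRF, a transcription factor whose cofactors MRTF-A and MRTF-B sense the pool of free actin.

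Whole livers came from male C57BL/6 mice of 8 weeks after partial hepatectomy, the removal of part of the liver, and each library held equal amounts of RNA from 3 mice. The OGA line gave 4 libraries: knockouts (OGA-/-) and floxed controls (OGAfl/fl) at 14 and at 28 days after surgery. The OGT line gave a knockout (OGT-/y) and a floxed control (OGTfl/y) library, both at 28 days. OGT attaches O-GlcNAc to proteins and OGA removes it, and both deletions are described as specific to hepatocytes; the labels do not name the Cre driver, and all 6 groups had surgery. There was 1 library per group, so the spread between replicates is unknown. Ranges after a log2 ratio are 95% counting intervals, which cover counting error only.

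Total counts ran from 20433100 to 29327722 per library. Levels are given as CPM, counts scaled to a common library size, with sizes adjusted by TMM, a factor that corrects for differences in composition, and 3 counts, the most that a count of 0 allows, stand for 0.107 to 0.13 CPM. No member had 0 counts in any library. Oga was depleted in OGA-KO (282 counts against 1525 at 14 days, 317 against 1760 at 28 days). Ogt counts were 1339 in OGT control and 1205 in OGT-KO, a log2 ratio of -0.43 after scaling. This does not check that label, and the deleted part of the gene is not given in the labels. The 11 hepatocyte markers listed all had a row, and their summed level was 102628 to 115808 CPM in 5 libraries and 65316 CPM in OGT-KO.

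The SRF binding motif, known as the CArG box, lay within 250 bases before a start site of 6 of the 54 members that have an entry in the promoter table (RefSeq, GRCm38.p6), or 11.1%. Among all 27025 genes with an entry 439 had one, or 1.62%. The consensus is its own reverse complement, so that a search of one strand covers both, although a single box need not read alike on both. A match is a description of these letters and not a bound site. Shown 5′ to 3′ are the windows of Cnn2, Myl9 and Actg1, with the highest OGT-KO ratios of the 6, and of Myo1e, which had the lowest. Capitals mark the box, and each window ends where the first annotated transcript starts or earlier.
Cnn2 (chr10:79988350-79988583, + strand): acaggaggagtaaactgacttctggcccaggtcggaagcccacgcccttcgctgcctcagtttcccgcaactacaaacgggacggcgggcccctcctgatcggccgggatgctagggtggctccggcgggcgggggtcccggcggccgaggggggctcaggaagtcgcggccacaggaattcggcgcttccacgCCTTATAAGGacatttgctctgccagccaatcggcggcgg
Myl9 (chr2:156775214-156775407, + strand): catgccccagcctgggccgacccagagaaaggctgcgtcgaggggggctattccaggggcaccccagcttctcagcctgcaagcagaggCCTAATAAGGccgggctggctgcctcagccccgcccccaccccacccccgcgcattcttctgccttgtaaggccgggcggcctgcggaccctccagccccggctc
Actg1 (chr11:120348543-120348745, - strand): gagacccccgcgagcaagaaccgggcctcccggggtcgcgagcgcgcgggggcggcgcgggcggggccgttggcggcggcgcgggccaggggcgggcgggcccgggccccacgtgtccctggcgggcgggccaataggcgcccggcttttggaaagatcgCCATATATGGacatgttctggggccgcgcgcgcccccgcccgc
Myo1e (chr9:70207100-70207349, + strand): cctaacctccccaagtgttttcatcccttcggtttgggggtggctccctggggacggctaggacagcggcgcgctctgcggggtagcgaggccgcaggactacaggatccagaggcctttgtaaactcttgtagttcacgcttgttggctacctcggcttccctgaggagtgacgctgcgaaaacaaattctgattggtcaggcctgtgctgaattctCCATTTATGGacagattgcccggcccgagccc
Arpc4 held the box CCTAATTTGG and Myl6 the box CCTTATATGG, the latter before a start inside the gene. The 6 members did not share a direction in OGT-KO: the log2 ratios were 1.95 for Cnn2, 1.74 for Myl9, 0.91 for Actg1, 0.63 for Arpc4, 0.34 for Myl6 and -0.43 for Myo1e.

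In OGT-KO liver most members stood above control in every family except gamma tubulin and its complex, where 3 lay above and 3 below. Heavy chain and unconventional myosins, Arp2/3 subunits and alpha and beta tubulins also held members on both sides. Of the 66 members with at least 1 CPM in either OGT library, 32 were at least 2-fold higher than control and none was 2-fold lower, although Tuba4a lay just short of it (log2 -0.99). By the same rule 16.4% of all 11803 genes were higher and 11.7% lower (28.1% together), against 48.5% and 0% of the members. The median log2 ratio of the 67 members was 0.91, and that of all genes -0.00061. In 48 of the 66 the OGT-KO library was the highest of the 6, and in 9 the lowest; among all genes at this level those shares were 37.5% and 36.8%. Myo7b, below 1 CPM in both OGT libraries, was the member left out.

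An edgeR quasi-likelihood fit over all 6 libraries, with terms for line, day and each knockout, tested the same difference. It had 1 residual degree of freedom, which comes from the OGA libraries, so that the OGT libraries are assumed to vary like them. Below, "rose" and "fell" are kept for genes past its Benjamini-Hochberg adjusted p of 0.05. It called 44 of 67 members risen and 7 fallen, beside 26.1% and 26.6% of all genes (52.6% in either direction), and all 32 members past the 2-fold rule were among the risen. The calls depended on the fit: 29 risen and 4 fallen members kept their call without the line term, and 28 and 2 did so in DESeq2. Over all genes the calls up and down were 1616 and 1419 without the line term, and 1211 and 1691 in DESeq2. Across these 3 fits 22 members rose and 2 fell. The 22 were Acta2, Actb, Actn1, Actn4, Arpc1b, Arpc2, Cnn2, Flna, Myh9, Myl12a, Myo15b, Myo1c, Myo1f, Myo1h, Myo7a, Tagln, Tagln2, Tpm1, Tpm3, Tpm4, Tuba1b and Vim, and Tuba4a was among the 2 that fell. Without a composition factor the median of all genes moved to a log2 of 0.37, and all 44 risen but only 2 of the fallen members, Tuba4a among them, kept their call. With that setting 40 members were 2-fold higher and still none lower, while genes 2-fold apart over the whole table went from 1937 higher and 1383 lower to 2832 and 832. In bulk liver, more cells of a type and more RNA per cell cannot be told apart.

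**Figure D1:**
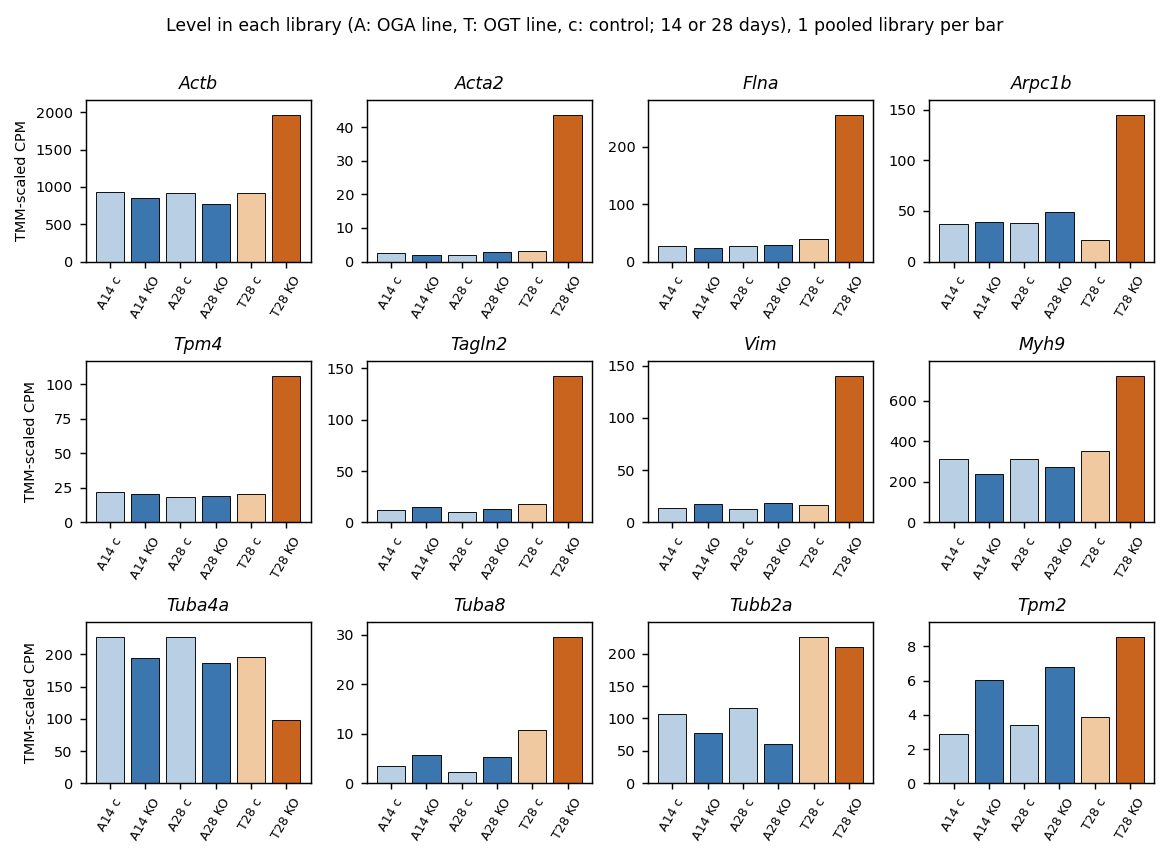
TMM-scaled CPM of 12 members in each of the 6 libraries, 1 pooled library per bar (A: OGA line, T: OGT line, c: control). In 8 genes, from Actb to Myh9, the OGT-KO bar is the highest by at least 2-fold over its control; Tuba4a is lowest there (98.7 CPM), and Tubb2a and Tpm2 differ between the OGA-KO and OGA control bars.

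Among the actins, all 3 members rose in OGT-KO. In each sentence of this kind the 4 OGA levels follow the order OGA-KO and control at 14 days, then OGA-KO and control at 28 days. Actb, the main actin of non-muscle cells, stood at 850.5, 935, 774 and 920.5 CPM in the OGA libraries, 914 CPM in OGT control and 1965 CPM in OGT-KO, a log2 ratio of 1.10, 1.08 to 1.13. The 5 other libraries lay close together and OGT-KO lay 2.15-fold above its control (edgeR adjusted p = 0.000797). Acta2, the smooth muscle actin, was at 1.96, 2.65, 2.91 and 2.02 CPM in the OGA libraries, 3.21 in OGT control and 43.6 in OGT-KO, which is 13.3-fold and a log2 ratio of 3.73, 3.43 to 4.12 (adjusted p = 0.000492). Actg1, the gamma form of cytoplasmic actin, had 36.9, 44.6, 39.0 and 33.4 CPM, then 71.9 and 135 CPM, a log2 ratio of 0.91, 0.83 to 1.0. Its OGT control already stood above the OGA libraries, and its call was lost without the line term. Per kb of annotated exon the order of levels in OGT control was Actb (341 CPM per kb), Actg1 (27.1) and Acta2 (1.46), and it was the same in OGT-KO (733, 50.9 and 19.9). The smooth muscle form took 0.324% of the counts of these 3 actins in OGT control and 2.03% in OGT-KO. Coding sequences of actins are near-identical and have processed copies in the genome, so that reads may be split between them.

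Crosslinkers rose as well, and of the 2 actinins the one with fewer counts in control had the higher ratio. Filamin A, which crosslinks actin into networks and anchors it to integrins, had 24.3, 27.1, 28.1 and 26.3 CPM in the OGA libraries, 40.1 in OGT control and 256 in OGT-KO (6.37-fold, log2 2.67, 2.57 to 2.77). The OGT-KO library was the highest and the 5 others lay far below it. Actn1, an actinin of stress fibres and adhesions, stood at 36.0, 36.1, 47.8 and 40.2 CPM in OGA livers, 37.7 in OGT control and 103 in OGT-KO (log2 1.45, 1.34 to 1.56). Actn4, the more abundant form by counts, had 203, 209, 196 and 219 CPM, then 207 and 352 (log2 0.77, 0.72 to 0.82). Actn1 thus held 15.4% of the counts of this pair in OGT control (exact 95% interval 14.5 to 16.4%) and 22.6% in OGT-KO (21.9 to 23.4%), beside 14.7 to 19.6% in the 4 OGA libraries. A share of this kind does not depend on scaling between libraries.

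The 7 Arp2/3 subunits did not move as 1 unit. Arpc1b, one of a pair of alternative ARPC1 subunits and known as the form of blood cells, had 39.2, 37.3, 49.3 and 37.8 CPM in the OGA libraries, 20.9 in OGT control and 145 in OGT-KO (6.91-fold, log2 2.79, 2.66 to 2.93, adjusted p = 0.000185). Its partner Arpc1a had 46.3, 43.7, 43.2 and 42.0 CPM, then 24.9 and 27.1 (log2 0.12, -0.036 to 0.28). OGT control was the lowest library for both, and OGT-KO the highest for Arpc1b alone. Arpc1b held 45.6% of the pair's counts in OGT control (42.6 to 48.7%) and 84.2% in OGT-KO (83.2 to 85.3%), beside 45.8 to 53.3% in OGA livers. Of the shared subunits, Arpc2 went from 109 to 226 CPM (log2 1.05, 0.98 to 1.11), and Arpc3 and Arpc4 had log2 ratios of 0.73 and 0.63. Arpc5 had a log2 ratio of 0.51. The calls of Arpc3, Arpc4 and Arpc5 were lost without the line term. Those of Arpc4 and Arpc5 were also lost in DESeq2 (adjusted p = 0.149 and 0.156). Arpc5l, the alternative to Arpc5, had 37.3, 38.4, 39.6 and 36.9 CPM, then 40.2 and 32.1, a log2 of -0.33 that turned to 0.045 without the composition factor.

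All 4 tropomyosins with a row were past 2-fold in OGT-KO. Tpm4, a form of stress fibres, had 20.6, 22.2, 18.9 and 18.7 CPM in the OGA libraries, 20.6 in OGT control and 106 in OGT-KO (5.13-fold, log2 2.36, 2.22 to 2.51). Tpm1 stood at 34.6, 36.4, 31.2 and 30.5 CPM, then 43.1 and 150.3 (log2 1.80, 1.70 to 1.9). For both genes the 5 other libraries lay far below OGT-KO and near one another. Tpm3, which gives most of the tropomyosin counts, had 77.3, 75.4, 72.8 and 70.6 CPM, then 87.7 and 183 (log2 1.06, 0.98 to 1.13). Tpm2, the least abundant by counts, had 6.03, 2.90, 6.79 and 3.40 CPM, then 3.86 and 8.56 (log2 1.13, 0.79 to 1.52). Its call was not kept in DESeq2. The share of Tpm3 in tropomyosin counts was 56.5% in OGT control and 40.8% in OGT-KO, and that of Tpm4 13.3% and 23.7%.

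Transgelins and calponins bind along actin filaments. Tagln2, the widely expressed transgelin, had 14.8, 12, 13.2 and 10.2 CPM in the OGA libraries, 18.1 in OGT control and 143 in OGT-KO (7.87-fold, log2 2.98, 2.84 to 3.13, adjusted p = 0.000111). Tagln, the smooth muscle form, had 7.14, 8.37, 8.98 and 7.14 CPM, then 12 and 46.7 (log2 1.95, 1.77 to 2.15). Both transgelins were higher in OGT-KO than in any other library. Cnn2 stood at 5.59, 4.90, 4.69 and 4.66 CPM, then 5.63 and 21.9 (log2 1.95, 1.69 to 2.24). Cnn3, the calponin with most counts here, differed by much less: 117, 107, 139 and 118 CPM, then 83.1 and 103 (log2 0.30, 0.22 to 0.39, adjusted p = 0.0546), and its OGT-KO level lay below all 4 OGA libraries.

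Intermediate filaments do not contain actin, and both members with a row rose. Vimentin, found in mesenchymal, endothelial and immune cells, had 17.4, 14, 18.4 and 12.6 CPM in the OGA libraries, 16.8 in OGT control and 140.2 in OGT-KO (8.33-fold, log2 3.06, 2.91 to 3.22, adjusted p = 0.000127). Desmin, in liver a marker of stellate cells and vessel muscle, had 4.11, 2.82, 4.29 and 2.37 CPM, then 3.68 and 12.7 (log2 1.77, 1.44 to 2.15). Its call was lost in DESeq2 (adjusted p = 0.0605).

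**Figure D2:**
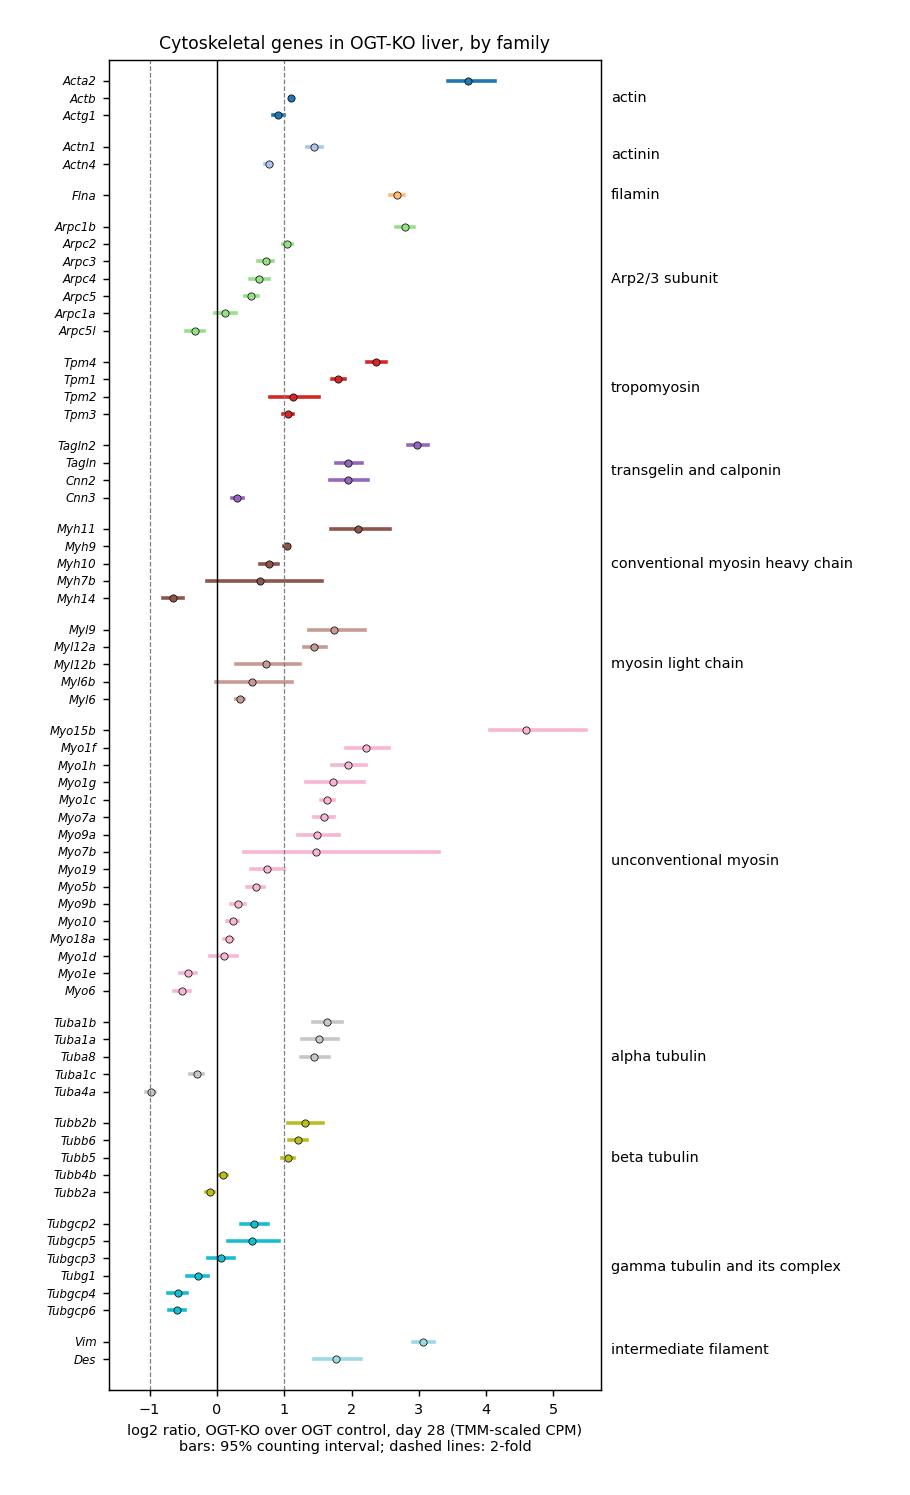
Log2 ratio of OGT-KO over OGT control at 28 days for the members reported, grouped by family, with 95% counting intervals as bars and 2-fold marked by dashed lines. Actins, actinins, filamins, tropomyosins, transgelins and calponins lie right of 0 with Acta2 at 3.73, and the alpha tubulins and the gamma tubulin complex lie on both sides, with Tuba4a at -0.99.

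Conventional myosins, the motors of contraction, differed by isoform. Myh9, the main non-muscle heavy chain, had 241, 312, 275 and 313 CPM in OGA livers, 352 in OGT control and 723 in OGT-KO (log2 1.04, 1.0 to 1.08). Myh10 stood at 20.4, 31.4, 25.8 and 33.6 CPM, then 28.7 and 49.2 (log2 0.77, 0.64 to 0.91; DESeq2 adjusted p = 0.0735). Myh11, the smooth muscle heavy chain, had 1.70, 2.24, 2.51 and 2.60 CPM, then 2.30 and 10 (log2 2.09, 1.70 to 2.58; DESeq2 adjusted p = 0.0569). Of these 3, only the Myh9 call held in DESeq2. Myh14, a non-muscle form of epithelial cells, went the other way, with 37.3, 38.9, 34.4 and 40.3 CPM, then 39.4 and 25.1 (log2 -0.65, -0.79 to -0.51, adjusted p = 0.00675). That call was lost in DESeq2 (0.128) and without a composition factor (0.0855). Its share of the counts of these 4 heavy chains was 9.33% in OGT control (8.76 to 9.93%) and 3.11% in OGT-KO (2.89 to 3.35%). Myh7b had 37 and 19 counts in this pair, a log2 ratio of 0.64, -0.15 to 1.57, so no difference was detectable at this depth.

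Myosin light chains set the activity of the heavy chains. Myl9, the regulatory chain of smooth muscle and myofibroblasts, had 1.92, 2.04, 2.79 and 1.68 CPM, then 2.64 in OGT control and 9.03 in OGT-KO (log2 1.74, 1.36 to 2.20; DESeq2 adjusted p = 0.152). Myl12a, the non-muscle regulatory chain, had 16.4, 16.5, 18.4 and 16.6 CPM, then 18.1 and 49.6 (log2 1.45, 1.29 to 1.61). Myl6, the essential chain and the most abundant of the family by counts, had 190.0, 175, 180.0 and 164 CPM, then 148 and 187 (log2 0.34, 0.28 to 0.40; DESeq2 adjusted p = 0.238). Myl12b (0.73) and Myl6b (0.53) had few counts. Myl12a and Myl12b are near-identical neighbours, so the split of reads between them is uncertain.

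Unconventional myosins, motors of membranes and cell edges, held both the highest ratio of all members and several of the lowest. Of 17, 7 were 2-fold higher, 10 rose and 3 fell by edgeR. Myo15b had 1.04, 1.10, 0.971 and 1.38 CPM in OGA livers, 0.78 in OGT control and 20.6 in OGT-KO, with 575 counts beside 18 (24.1-fold, log2 4.59, 4.05 to 5.49). Myo1f and Myo1g, known from white blood cells, stood at 19.9 and 8.45 CPM in OGT-KO against 4.25 and 2.51 in control (log2 2.21, 1.92 to 2.55 and 1.72, 1.33 to 2.19), with OGA levels of 2.44, 1.67, 2.14 and 1.83 CPM for Myo1f and 1.26, 1.92, 1.86 and 1.34 for Myo1g. The other 2-fold members were Myo1h (1.95), Myo1c (1.64), Myo7a (1.59) and Myo9a (1.49). DESeq2 did not keep the calls of Myo1g and Myo9a. Myo6 (-0.52) and Myo1e (-0.43) fell by edgeR only; both calls were lost without the line term, in DESeq2 and without the composition factor. A further 6 members, Myo5b, Myo9b, Myo10, Myo18a, Myo19 and Myo1d, lay between 0.10 and 0.74, and Myo7b, at 24 against 6 counts, at 1.47.

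Alpha tubulins split by isotype. Tuba4a, with most of the family's counts in OGA livers, had 194, 226, 187 and 227 CPM, then 195 in OGT control and 98.7 in OGT-KO (log2 -0.99, -1.05 to -0.92, adjusted p = 0.00115). OGT-KO was the lowest of the 6 libraries, and the call held in DESeq2, without the line term and without a composition factor. Tuba1b had 11.4, 13.4, 10.7 and 12.3 CPM, then 9.92 and 30.9 (log2 1.63, 1.43 to 1.85), and Tuba1a 4.0, 4.90, 3.76 and 3.51 CPM, then 6.24 and 18.0 (log2 1.52, 1.26 to 1.80). Tuba1b is a broadly expressed form, and Tuba1a is best known from developing neurons. Tuba8 had 5.81, 3.47, 5.30 and 2.25 CPM, then 10.8 and 29.6 (log2 1.45, 1.25 to 1.67), but its OGT control also lay above all 4 OGA libraries. The Tuba8 call was lost without the line term, and the Tuba1a call in DESeq2 (adjusted p = 0.0665). Tuba1c had 45.2, 53.0, 43.3 and 43.6 CPM, then 71.1 and 57.8, a log2 of -0.30 that turned to 0.072 without the composition factor. Tuba4a thus held 66.6% of alpha tubulin counts in OGT control (65.5 to 67.7%) and 42.0% in OGT-KO (40.8 to 43.2%), and 74.5 to 78.7% in OGA livers. Over the same pair the shares of Tuba1b (3.38 and 13.1%), Tuba8 (3.68 and 12.6%) and Tuba1a (2.13 and 7.65%) were larger in OGT-KO. Tuba1a, Tuba1b and Tuba1c are near-identical in their coding parts, which makes their single values uncertain.

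Beta tubulins showed the same kind of split without a member that fell. Tubb5, a broadly expressed form, had 65.8, 73.7, 61.5 and 80.3 CPM, then 59.6 and 123 (log2 1.05, 0.96 to 1.14). Tubb6 had 8.77, 10.4, 12.8 and 7.41 CPM, then 25.8 and 59.3 (log2 1.20, 1.06 to 1.34), and Tubb2b 2.18, 3.18, 1.86 and 2.02 CPM, then 7.28 and 18.1 (log2 1.31, 1.06 to 1.58). For both, OGT control was already above the OGA libraries. The calls of Tubb5, Tubb6 and Tubb2b were lost without the line term, and that of Tubb2b also in DESeq2 (adjusted p = 0.164). The forms with the most counts differed least: Tubb4b had 117, 146, 121 and 138 CPM, then 180.3 and 193 (log2 0.10), and Tubb2a 77.0, 106, 60.8 and 117 CPM, then 226 and 210.0 (log2 -0.10, 0.27 without the composition factor). Tubb2a held 45.3% of beta tubulin counts in OGT control and 34.8% in OGT-KO, with 23.6 to 33.9% in OGA livers. Tubb5 held 11.95% and 20.5%, with 21.7 to 24.3% in OGA livers, so that OGT control was the library that stood apart. Reads of Tubb2a and Tubb2b may be split between these near-identical copies.

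Gamma tubulin and its ring complex, which nucleate microtubules, had no member past 2-fold. Tubg1 had 34.9, 41.3, 30.4 and 38.1 CPM, then 30.5 and 25 (log2 -0.29, 0.084 without the composition factor). Tubgcp6 had 65.5, 62.8, 69.4 and 63.9 CPM, then 56.1 and 37.0 (log2 -0.60, -0.72 to -0.48), and Tubgcp2 14.8, 15.4, 14.6 and 14.7 CPM, then 14.1 and 20.6 (log2 0.55, 0.35 to 0.75). By edgeR Tubgcp6 and Tubgcp4 (-0.58) fell and Tubgcp2 rose. None of the 3 passed DESeq2. Tubgcp5 (0.53) and Tubgcp3 (0.061) passed neither test.

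**Figure D3:**
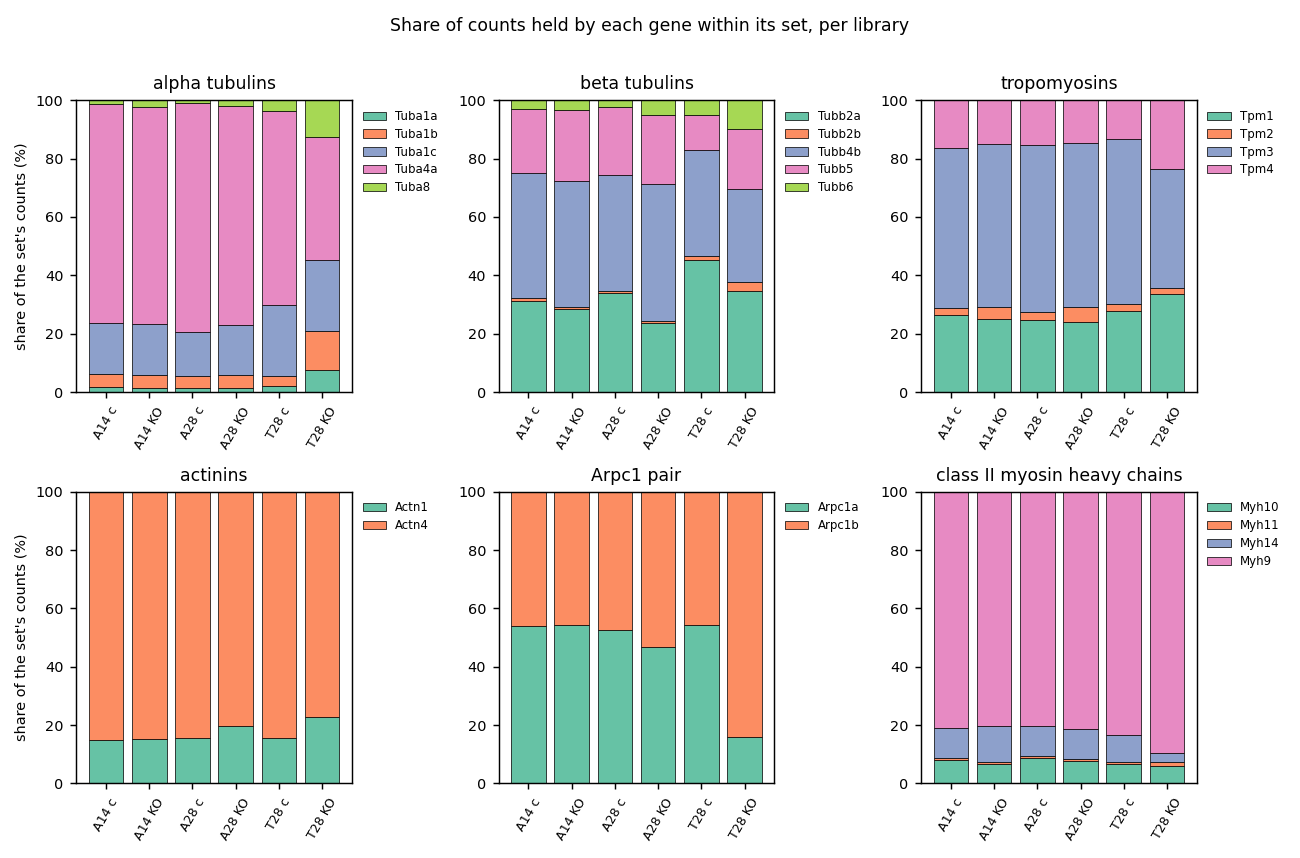
Share of counts (percent) held by each gene within its set in each library; sets are stacked to 100%. In OGT-KO (last bar) Tuba4a is at 42.0% of alpha tubulin counts, Actn1 at 22.6% of the actinins and Arpc1b 84.2% of the ARPC1 pair.

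Genes that regulate these filaments were read from lists of partners outside the families. Over all genes 16.4% were higher and 11.7% lower by size, and 26.1% rose and 26.6% fell by edgeR, which is the scale for the counts of each list. Of 31 actin-binding genes 10 were higher and none lower (22 rose, 3 fell, median 0.80), led by Capg (3.74), Ezr (3.27), Tmsb10 (3.25) and Msn (2.65), which cap, anchor or sequester actin. Of 21 focal adhesion genes 6 were higher and none lower (11 rose, 2 fell, median 0.39), with Csrp1 (2.44), Pdlim7 (2.40), Fermt3 (2.23) and Parvb (1.77). Of 20 microtubule-associated genes 5 were higher and 1 lower (13 rose, 3 fell, median 0.40). By size these shares are not far from those of all genes. The list included Vash1 (2.13), Dynll1 (1.98) and Stmn1 (1.40), and the lower one was Tppp (-2.74). The 19 chaperonin subunits and folding cofactors of actin and tubulin had none past 2-fold (3 rose, 4 fell, median -0.017). Among these, Pfdn1 (1.0), Pfdn4 (0.84), Tbcc (-0.83) and Pfdn6 (-0.75) lay farthest from 0. In OGA-KO no gene of these 4 lists was past 2-fold at either time, beside 0.839% of all genes at 14 days and 2.57% at 28 days. Counts this close to the background say nothing particular about the lists.

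Markers of several other liver cells moved with the members. Of the listed stellate cell and myofibroblast markers 14 of 15 with a row were 2-fold higher in OGT-KO, and their summed level was 2889 CPM against 445 in OGT control and 293 to 388 in OGA livers. Smooth muscle and pericyte markers had 6 of 7 higher (172 against 54.4 CPM, 43.7 to 49.4 in OGA livers), macrophage markers 10 of 12 (1290 against 360.0, OGA 187 to 235), bile duct markers 6 of 9 with 1 lower (518 against 131, OGA 92.8 to 114), proliferation markers 7 of 7 (163 against 18.0, OGA 11.6 to 16.8) and leukocyte markers 4 of 4 (41.9 against 11.7, OGA 6.99 to 9.99). Endothelial markers had 2 of 11 higher and 1 lower (363 against 276, OGA 303 to 335), while by edgeR 3 rose and 5 fell. Much of their sum in OGT-KO came from Stab1, at 161 CPM against 40.4 in OGT control. Mesothelial markers had 2 of 6 higher (15.4 against 4.12, OGA 7.30 to 16.4). Upk1b, at 0 in OGT control, was the one listed marker with a row that was at 0 in any library. Rgs5 is on both the stellate and the smooth muscle list. Hepatocyte markers had 4 of 11 lower and none higher. Rows were lacking for 9 of 10 skeletal muscle markers, and the remaining one, Neb, was lower (-2.57). The part of these cells in the members' ratios was not tested.

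**Figure D4:**
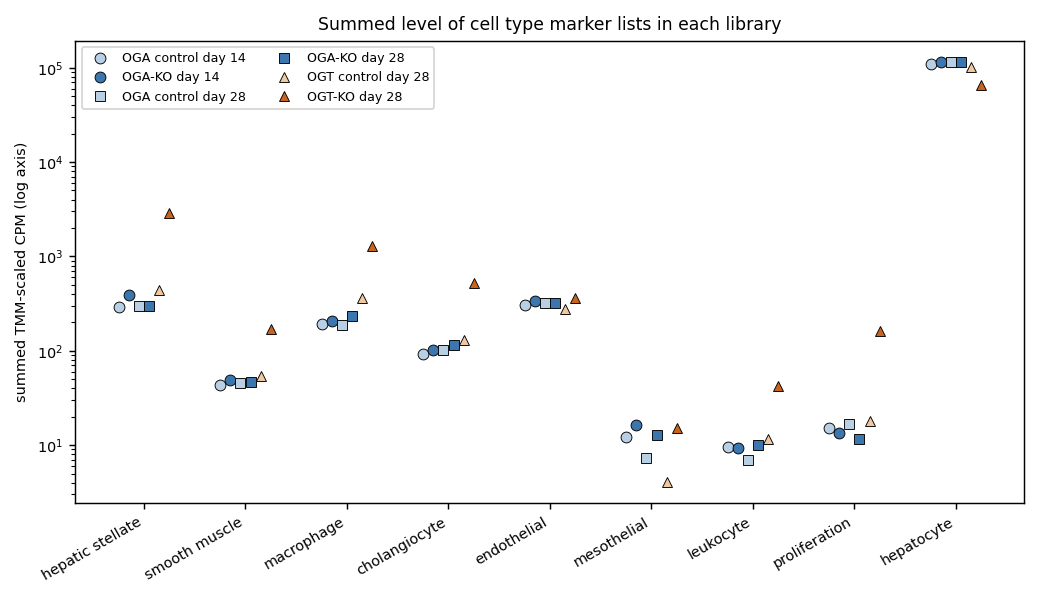
Summed TMM-scaled CPM of each marker list in each library, on a log axis, with 1 point per library. OGT-KO is the highest library for stellate (2889 CPM), smooth muscle, macrophage, bile duct, leukocyte and proliferation markers and the lowest for hepatocyte markers. The endothelial sum is also highest there, with Stab1 at 161 CPM, although 3 of these 11 markers rose and 5 fell.

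In OGA-KO liver the same genes stayed near their controls, with a few exceptions that pointed the same way at both times. At 14 days 1 of 67 members was 2-fold higher and none lower. That is 1.49%, beside 0.839% of all genes (0.534% higher, 0.305% lower). At 28 days it was again 1 higher and none lower, beside 2.57% (1.7% higher, 0.869% lower). Shares this close to the background say nothing particular about the members. The median log2 ratio was -0.062 at 14 days and 0.039 at 28 days. By edgeR over both times 0 of 67 passed, beside 4 of 12027 genes (0.0333%). At an unadjusted p under 0.05 there were 14 of 67 members and 13.0% of all genes. DESeq2 called 1 member, Tubb2a, and gave no adjusted p for 20.

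Tpm2 was the member higher at 14 days: 163 counts in OGA-KO and 71 in control (log2 1.04, 0.65 to 1.48). At 28 days it had 168 and 89 counts, just short of 2-fold (0.98, 0.62 to 1.39). With a prior count of 10 in place of 2 it was under 2-fold at 14 days too. Tuba8 was the member higher at 28 days, at 131 against 59 counts (1.20, 0.78 to 1.70), after 157 against 85 at 14 days (0.73, 0.35 to 1.14). Both genes had higher levels in the 2 OGA-KO than in the 2 OGA control libraries. They were picked for passing 2-fold in these same libraries, so that this order adds no separate support. The edgeR adjusted p was 0.165 for Tpm2 and 0.209 for Tuba8. Desmin (0.53, 0.10 to 1.0 and 0.83, 0.39 to 1.33), vimentin (0.32, 0.12 to 0.53 and 0.54, 0.33 to 0.75) and Tagln2 (0.30, 0.086 to 0.53 and 0.37, 0.14 to 0.61) were higher by less. Beside these, the summed stellate markers were 388 against 293 CPM at 14 days but 297 against 297 at 28 days. Smooth muscle markers were 49.4 against 43.7 and 46.2 against 45.1, and mesothelial markers 16.4 against 12.2 and 12.7 against 7.30. The part of these cells was not tested.

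Tubb2a was the member lowest in OGA-KO at 28 days. Its OGA-KO and control libraries held 2081 and 2605 counts at 14 days, a log2 of -0.46, -0.55 to -0.38. At 28 days they held 1504 and 3060, a log2 of -0.94, -1.03 to -0.85. DESeq2 gave an adjusted p of 0.0144 and edgeR 0.209, with up to 0.977 under other edgeR settings. The summed beta tubulins were lower at both times, by a log2 of -0.33 (-0.37 to -0.28) and -0.42 (-0.47 to -0.37). So were the conventional myosin heavy chains, at -0.36 (-0.40 to -0.31) and -0.21 (-0.25 to -0.16), with Myh10 at -0.62 and -0.38 and Myh9 at -0.38 and -0.19. Counting intervals lay above 0 at both times for 8 members and below 0 at both times for 9. Such intervals are common in all genes: 1996 lay above and 1743 below 0 of 11801 at 14 days. At 28 days 2635 lay above and 2401 below of 11851. The share of all genes on the same side at both times was not counted, so the 8 and the 9 have no background to be set against. The 8 were Tpm2, Tuba8, Des, Vim, Tagln2, Cnn3, Myl6 and Arpc3, and among the 9 were Tubb2a, Tubb5, Tubb4b, Tuba4a, Tubg1, Actb, Myh9 and Myh10. Such intervals hold no difference between pools, and none of these 17 passed edgeR.

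**Figure D5:**
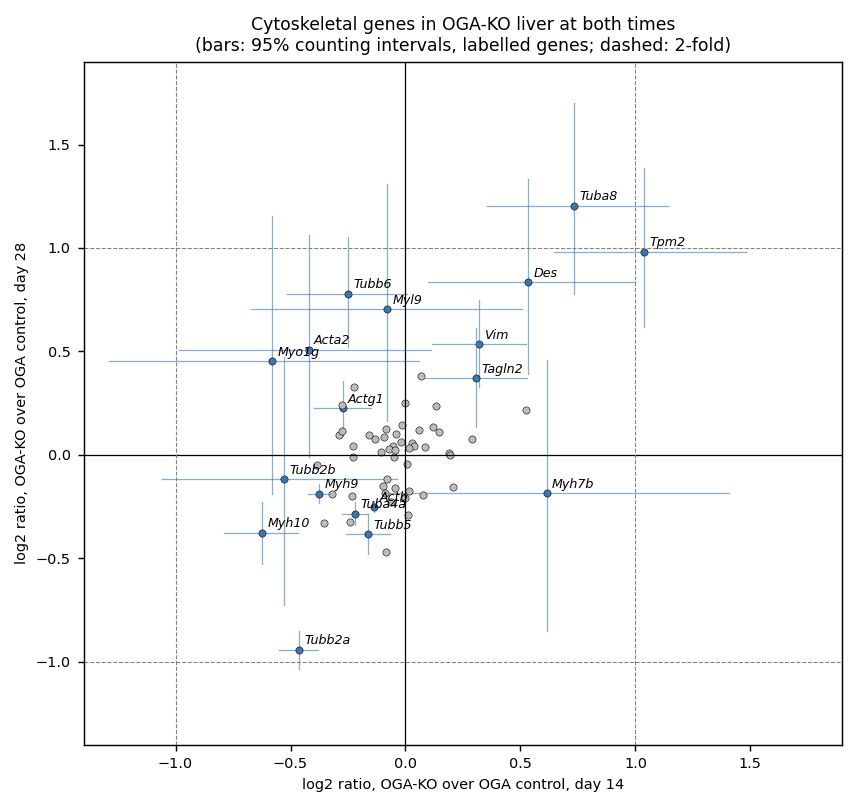
Log2 ratio of OGA-KO over OGA control for each of the 67 members at 14 days (x axis) and 28 days (y axis), with 95% counting intervals for labelled genes and 2-fold marked by dashed lines. Tpm2 (1.04 and 0.98) and Tuba8 (0.73 and 1.20) lie at the upper right and Tubb2a (-0.46 and -0.94) at the lower left, while most members lie near 0.

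The contrast between the OGT-KO and OGA-KO effects was tested in the same edgeR fit. It was positive for 37 members and negative for 6, beside 21.4% and 22.7% of all genes (44.1% together). Of these members 29 and 2 passed without the line term, and 23 and 2 in DESeq2. Over all genes the positive and negative calls were 1396 and 1371 without the line term, and 720 and 1346 in DESeq2. Acta2 (adjusted p = 0.00185), Vim (0.000458), Flna (0.000444), Tagln2 (0.000361) and Actb (0.00143) were more positive in OGT-KO, and Tuba4a was more negative (0.00763). None of the 6 negative calls held without a composition factor, where Tuba4a had an adjusted p of 0.0618. Tpm2 (0.736) and Tuba8 (0.182) did not pass, and both were higher in each knockout than in its control.

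Differences other than knockout against control give a scale for these values. Between OGA controls of 28 and 14 days, which also serve in the OGA-KO pairs, no member was 2-fold apart (0%, beside 0.927% of all genes), and the ratios ran from -0.63 (Tubb2b) to 0.69 (Myh7b). Between the OGA-KO libraries of 28 and 14 days, which serve in the same pairs, there was again none (beside 1.32%), from -0.55 (Myl6b) to 0.55 (Acta2). Between OGT control and OGA control at 28 days 5 members were higher and 2 lower, together 10.4% of members and 10.4% of all genes (4.72% higher, 5.72% lower). The higher were Tuba8 (2.22), Tubb2b (1.81), Tubb6 (1.79), Myo1f (1.18) and Actg1 (1.10), and the lower Myo7b (-2.18) and Myh7b (-1.03). In only 12 of the 32 members past 2-fold in OGT-KO did the OGT control level lie inside the range of the 4 OGA libraries. That share was not counted over all genes. Of the same 32, 4 were 2-fold apart between the control lines, namely Tuba8, Tubb2b, Tubb6 and Myo1f. For those the line and the knockout point the same way. Line and any difference in handling between the lines cannot be told apart.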

How the data were processed

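Total RNA of whole liver was made into mRNA-seq libraries, per the labels' protocols, on 2 lanes. STAR, Subread and edgeR are named in the submitters' processing notes with the build mm39; versions, settings and the use of strand are not given in the sources used here. The authors deposited raw counts and CPM (counts scaled to library size) for 12027 genes. The deposited CPM equalled count over column total in the OGA columns and had a slightly larger divisor in the OGT columns (sums of 998961 and 992309), so levels were recomputed from counts. Every row had at least 28 counts over the 4 OGA libraries and 56 rows were at 0 in both OGT libraries, so a gene seen only in the OGT line may lack a row. Symbols came from GENCODE M21.

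Log2 ratios of TMM-scaled CPM used a prior count of 2, with exact 95% conditional binomial intervals that cover counting error only. A gene was called by size at 2-fold or more with at least 1 CPM in the higher library. edgeR 4.0.16 (R 4.3.3) quasi-likelihood tests used 5 coefficients with Benjamini-Hochberg adjustment over all genes; DESeq2 1.42.0, other scalings, prior counts and thresholds were alternatives. Scripts were tested on simulated counts. Shares carry exact Clopper-Pearson intervals. Members, lists and tests were chosen with earlier results of these data known. Named were a set of members by family, the highest and lowest of each family, the members past 2-fold and up to 4 genes per list. Values of 2 members and of 1 partner list are not reported here, though they stay in the counts. Protein sequences were not used here.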

Additional observations from a re-analysis of the deposited data

Results flagged for a closer look

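In the 3 members given here the OGA-KO ratio had opposite signs at the 2 times, with counting intervals on either side of 0. The difference between the times was not tested. The share of all genes with such opposite intervals was not counted, so nothing particular to the members can be read from them. Actg1 was at -0.27 at 14 days and 0.22 at 28 days (log2), Myo18a at -0.094 and 0.088, and Myo5b at 0.21 and -0.16. All 6 ratios are small beside those of Tpm2 and Tuba8.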

How the results depend on the processing

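No paired analysis was possible because the labels carry no replicate numbers and each group had 1 library. A threshold of 3-fold gave 19 members in OGT-KO, 0 in OGA-KO at either time and 4 between the control lines. Of all genes it gave 15.4% in OGT-KO, 0.0932% and 0.776% in OGA-KO at 14 and 28 days, and 3.53% between the control lines. A threshold of 1.5-fold gave 41 higher and 4 lower members in OGT-KO, beside 2930 and 2623 of all genes (47% together). The absence of lower members there thus holds at 2-fold and not at 1.5-fold. At 1.5-fold there were 4 members in OGA-KO at 14 days and 6 at 28 days, beside 4.63% and 8.56% of all genes. Between the OGA control times there were 3, beside 4.03%, and between the control lines 24, beside 27.1%. A prior count of 10 gave 0 in OGA-KO at 14 days, beside 0.407% of all genes. A minimum of 5 CPM gave 4 between the control lines, beside 8.52%. By edgeR 51 members were called for the OGT-KO effect, against 33 without the line term and 30 in DESeq2. For the OGA-KO effect DESeq2 called 1 against 0, and for the contrast of both knockouts 25 against 43. Over all genes DESeq2 called 2902 for OGT-KO, 36 for OGA-KO and 2066 for the contrast, against 6332, 4 and 5301 by edgeR. No member changed from one called direction to the other under the alternatives run. Without a composition factor 54 members rose and 2 fell in OGT-KO, against 44 and 7. All genes shifted the same way, with 5334 risen and 1862 fallen against 3134 and 3198. Between the control lines that setting gave 9 higher and 1 lower members, against 5 and 2. Over all genes it gave 968 higher and 444 lower, against 556 and 674. The filter on low counts removed no gene. With 1 pool per group, depth limits members such as Myo7b, and no setting measures the spread between animals.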
